A study of Mus musculus with 4 samples.

Results

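Small RNA from plasma exosome preparations was examined for 5 miRNAs: mmu-miR-150-5p and the 5p arms of the miR-181 family, mmu-miR-181a-5p, mmu-miR-181b-5p, mmu-miR-181c-5p and mmu-miR-181d-5p. They were picked by name from the 1809 miRNAs listed for all 4 libraries, and all 5 had counts in every library. The plasma came from C57BL/6 mice, either wild type (WT) or gp49B-/- (KO), and every mouse had received LLC (Lewis lung carcinoma) tumour cells into a vein 21 days earlier. gp49B is an inhibitory receptor of myeloid cells, and no group without tumour cells was analysed here. There were 2 libraries per genotype, called W1 and W2 for WT and K1 and K2 for KO after the pool number in the labels. W1 and W2 were each made from 3 pooled plasma samples and K1 and K2 from 4, so spread between mice inside a pool cannot be seen, and genotype and the number of samples pooled cannot be told apart. Vesicles were precipitated from plasma, and the counts do not show which cells released the RNA. Fewer vesicles from a cell type and less of a miRNA per vesicle cannot be told apart either.

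miRNAs are short RNAs that guide Argonaute proteins to messenger RNAs, mainly through bases 2 to 8, the seed, and so lower protein output. miR-150 is abundant in mature B, T and NK cells and represses the transcription factor Myb during lymphocyte development. miR-181a is high in developing thymocytes, where it raises sensitivity to T cell receptor signals, and the family is also found outside the immune system, for example in brain.

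The mature sequences of the miR-181 members are shown because they define the family and show how little separates its members. RefSeq (GRCm38.p6) held sequences for 4 of the 5 members. The seed is in capitals, read 5′ to 3′.
miR-181a-5p: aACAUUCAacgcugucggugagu
miR-181b-5p: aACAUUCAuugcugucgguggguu
miR-181c-5p: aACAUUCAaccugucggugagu
miR-181d-5p: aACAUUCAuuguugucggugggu
All 4 carried the seed ACAUUCA, and 0 of the other names among the 1679 mature mouse miRNAs in that table did. Counted from the 5′ end, miR-181b-5p and miR-181d-5p differed by the substitution C12U over the 23 bases both have, and miR-181a-5p and miR-181c-5p were 1 edit apart. A read with an error at such a base could be counted for the neighbouring member, so the lower counts of miR-181c-5p and miR-181d-5p are the less certain ones.

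The family lies in 3 clusters (deposited positions, GRCm38; genes from GENCODE M21). Identical copies of miR-181a-5p lie on the plus strand of chromosome 1 (137966468 to 137966490), within an intron of Gm4258, and of chromosome 2 (38852741 to 38852763), within an intron of Nr6a1, a gene on the opposite strand. miR-181b-5p starts 182 bases after it on chromosome 1, inside an exon of the lincRNA A430106G13Rik, and 1104 bases after it on chromosome 2. RefSeq ends both miR-181b-5p copies 1 base later than the deposited positions, and the sequence above is that of RefSeq. miR-181c-5p (84178924 to 84178945) and miR-181d-5p (84178759 to 84178781) lie on the minus strand of chromosome 8 within an intron of Nanos3. miR-150-5p lies on the plus strand of chromosome 7 (45121762 to 45121783), where the annotation has no gene other than that of the miRNA. Counts of miR-181a-5p and miR-181b-5p could not be divided between their copies.

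The libraries held 1577749 to 3630249 miRNA UMIs (unique molecular identifiers, tags that mark single molecules before amplification), more in W2 and K2 than in W1 and K1. Reads per UMI were 5.29 in W1 and 5.70 in K1 but 1.69 in W2 and 2.11 in K2, so pool number went with depth per molecule. Red blood cell marker miRNAs (8 of 8 counted, miR-16-5p among them) took 38.0 to 46.8% of miRNA UMIs and liver markers (5 of 5) 7.49 to 27.3%. miR-16-5p held a large part of the red blood cell share. With miR-16-5p left out of the total, the share of the 5 members rose from 0.718 to 1.11% in W1 and from 0.463 to 0.616% in W2. It rose from 0.861 to 1.22% in K1 and from 0.482 to 0.674% in K2. The 9 lymphocyte markers, which include the 5 members, took 1.64 to 2.45%, and none of these lists had a marker at 0 in any library.

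miR-150-5p was among the most abundant miRNAs of the preparations, and the miR-181 members followed far below it. It had 10335 UMIs in W1, 13209 in W2, 12975 in K1 and 15394 in K2. That placed it between rank 22 and rank 28 of the 1809 miRNAs. miR-181a-5p had 556 UMIs in W1, 836 in W2, 1060 in K1 and 1223 in K2. miR-181b-5p had 240 in W1, 435 in W2, 480 in K1 and 605 in K2. These 2 ranked between 86 and 106 and between 111 and 176, well above the middle of the list.

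miR-181d-5p had 121 UMIs in W1, 144 in W2, 134 in K1 and 204 in K2. miR-181c-5p had 74 in W1, 59 in W2, 65 in K1 and 74 in K2. The median miRNA of each library had 31 to 47 UMIs, so miR-181c-5p stood 1.51 to 1.90 times above it and miR-181d-5p 2.57 to 4.86 times. The order from miR-150-5p through miR-181a-5p, miR-181b-5p and miR-181d-5p to miR-181c-5p was the same in all 4 libraries. The ranges over libraries of miR-181c-5p (18.6 to 46.9 CPM of total miRNA UMIs) and miR-181d-5p (45.4 to 78.4) overlapped. Adapter ligation differs between sequences, so levels of different miRNAs compare only loosely.

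**Figure D1:**
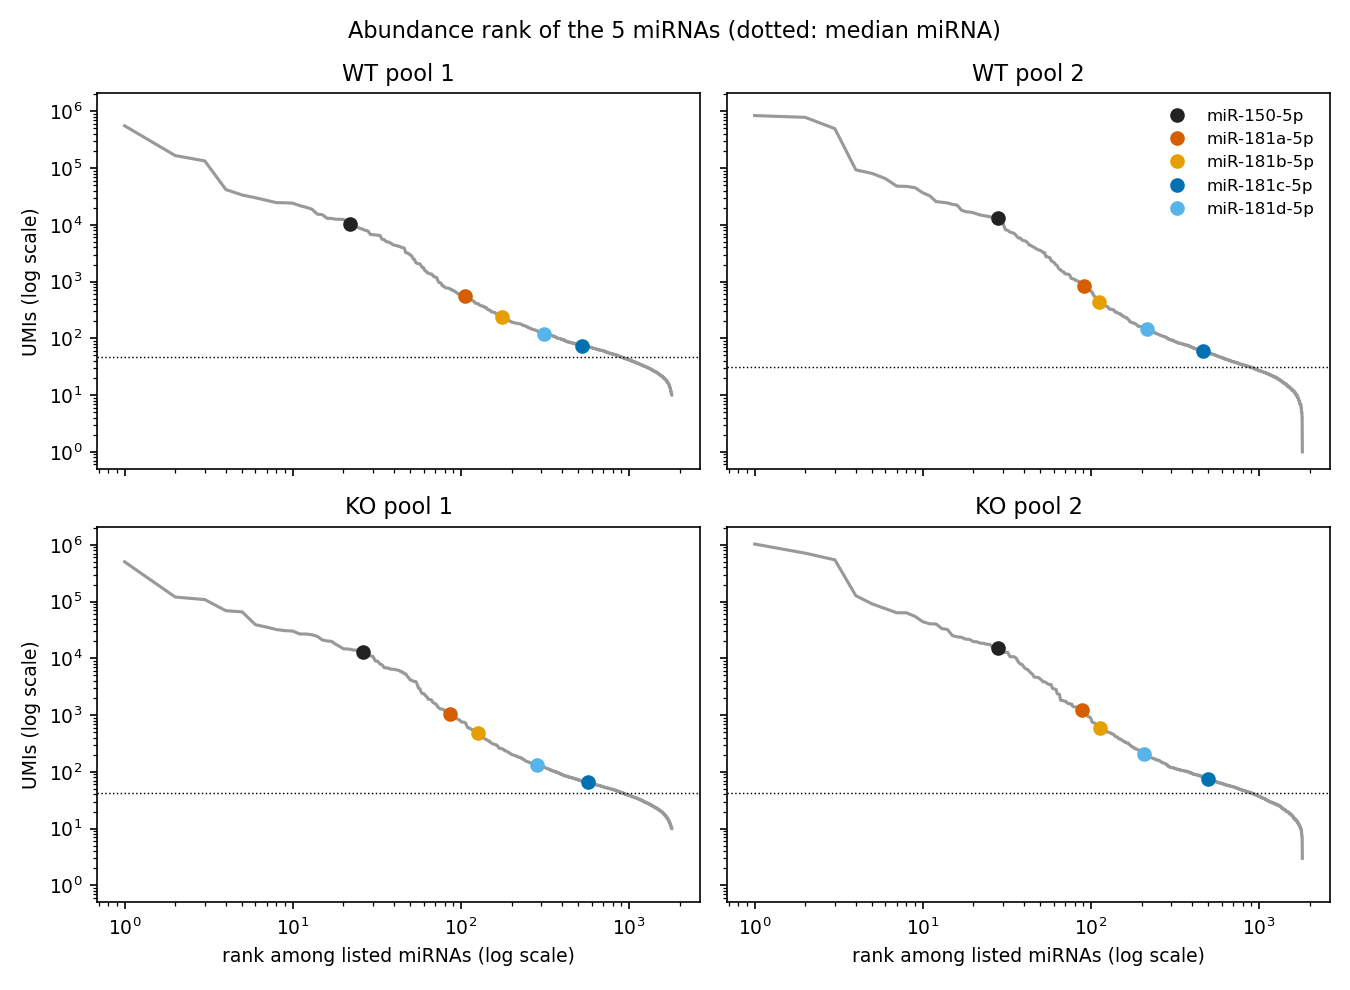
UMIs of all listed miRNAs against their abundance rank (both axes logarithmic), 1 panel per library, with the 5 miRNAs as coloured points and the median miRNA as a dotted line. miR-150-5p sits between ranks 22 and 28, and miR-181c-5p, the lowest of the 5, is close to the dotted line.

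Together the 5 took 0.718% of miRNA UMIs in W1, 0.463% in W2, 0.861% in K1 and 0.482% in K2. W1 and K1 were the high libraries, and the genotypes overlapped. The mean was 0.591% ± 0.180 for WT and 0.671% ± 0.268 for KO (SD, n = 2 each). The two-sided exact permutation p was 0.667, where the smallest that 2 against 2 libraries allow is 0.333. The difference between KO and WT, 0.081 percentage points, was 0.044 with the liver list left out of the total, where the shares were 0.810% in W1, 0.637% in W2, 0.930% in K1 and 0.605% in K2, with K2 below W2. Without W2 the difference turned to -0.047 percentage points, and without K1 to -0.108. miR-150-5p made up most of this share, since the miR-181 family alone took 0.0628% in W1, 0.0465% in W2, 0.102% in K1 and 0.0580% in K2.

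The main comparison asks whether these miRNAs differed between gp49B KO and WT. It is given on 2 scales, because they order the pools differently. As CPM of total miRNA UMIs, miR-150-5p stood at 6550 in W1, 4167 in W2, 7589 in K1 and 4240 in K2, so the pool 1 libraries were high. In CPM after TMM scaling, which sets the bulk of miRNAs level between libraries, it stood at 3862 in W1, 7261 in W2, 5051 in K1 and 6201 in K2, so the pool 2 libraries were high. The TMM factors themselves parted the pools, at 1.696 in W1, 0.574 in W2, 1.503 in K1 and 0.684 in K2. The bulk has low counts, with a median miRNA of 31 to 47 UMIs, and the smallest nonzero counts were larger in pool 1 than in pool 2. The part of these low counts in the factors was not tested, so the pool order after TMM scaling is uncertain. The genotypes overlapped on both scales. The fitted log2 fold change of miR-150-5p, KO over WT, was 0.02 (SE 0.78), with an adjusted p of 0.99995 in edgeR's quasi-likelihood test.

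miR-181a-5p, the main member of its family, stood at 352 CPM of total UMIs in W1, 264 in W2, 620.0 in K1 and 337 in K2. K1 was the high library, and K2 lay below W1. After TMM scaling its CPM were 208 in W1, 460 in W2, 413 in K1 and 493 in K2, where W1 was the low library. On this scale the means of 334 ± 178 for WT and 453 ± 56.6 for KO (SD, n = 2 each) differed by less than the spread of WT. As CPM of total UMIs they were 308 ± 62.7 for WT and 478 ± 200 for KO. That difference was above the SD of WT and below that of KO. The log2 fold change of miR-181a-5p was 0.44 (SE 0.61, edgeR adjusted p = 0.99995).

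miR-181b-5p lies beside miR-181a-5p at both loci. It stood at 152 CPM of total UMIs in W1, 137 in W2, 281 in K1 and 167 in K2, so on this scale both KO libraries were above both WT libraries. That was so for 1 of the 5 members and for 3.28% of the 1797 miRNAs tested. After TMM scaling the CPM of miR-181b-5p were 89.7 in W1, 239 in W2, 187 in K1 and 244 in K2, and the genotypes overlapped. On that scale both KO libraries were above both WT libraries for 0 of the 5 members and for 9.52% of all. The log2 fold change of miR-181b-5p was 0.39 (SE 0.60, edgeR adjusted p = 0.99995).

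The 2 chromosome 8 members had smaller estimates. miR-181d-5p had 45.2 CPM after TMM scaling in W1, 79.2 in W2, 52.2 in K1 and 82.2 in K2, with a log2 fold change of 0.11 (SE 0.52). miR-181c-5p had 27.7 in W1, 32.4 in W2, 25.3 in K1 and 29.8 in K2, with a log2 fold change of -0.12 (SE 0.42). Both had an edgeR adjusted p of 0.99995 and overlapping genotypes.

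**Figure D2:**
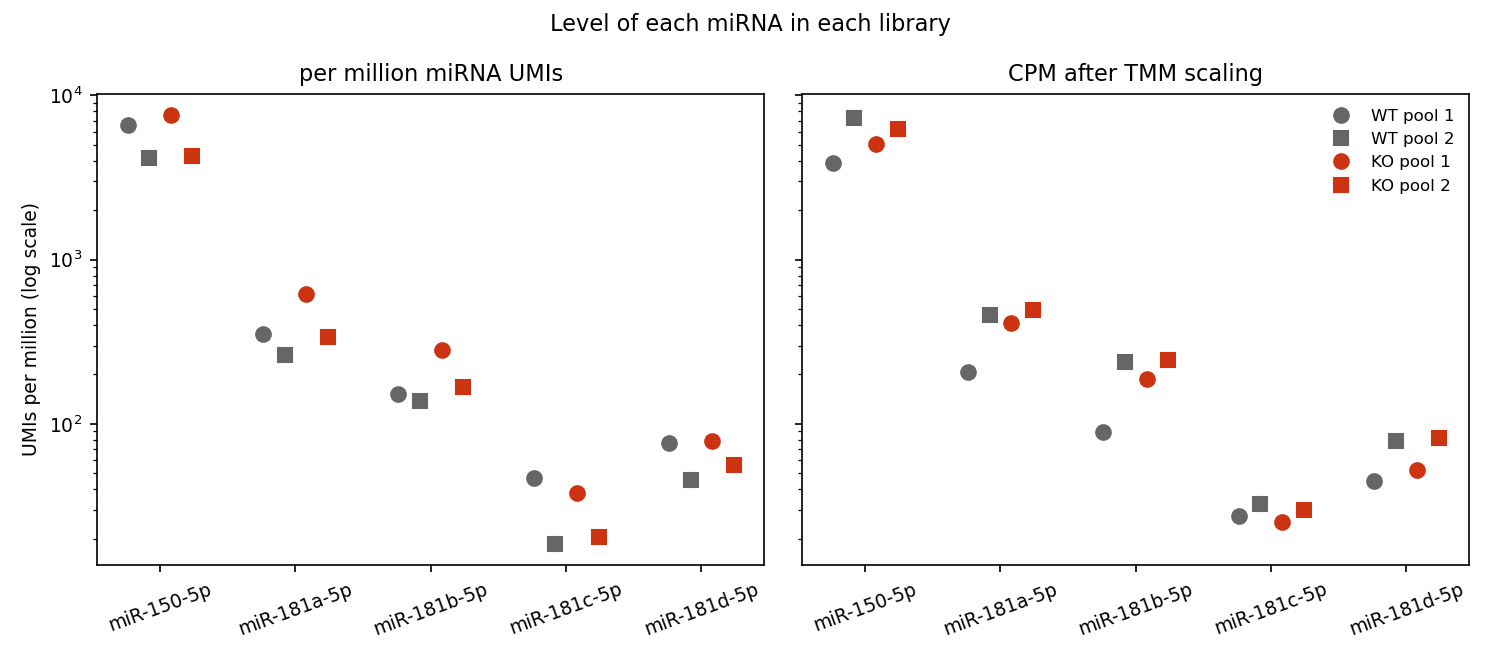
Level of each miRNA in each library on a logarithmic axis, as CPM of total miRNA UMIs (left) and as CPM after TMM scaling (right), with WT in grey, KO in red, pool 1 as circles and pool 2 as squares. For miR-150-5p the circles are above the squares on the left (7589 against 4240 in KO) and below them on the right (5051 against 6201).

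Across all miRNAs, edgeR's quasi-likelihood test called 0 of 1797, or 0%, at an adjusted p under 0.05, and 0 of the 5 members. At an unadjusted p under 0.05 edgeR counted 32 (1.78%), none of them a member, limma-voom 27 and DESeq2 28, and these 2 also called 0 after adjustment. Estimates were higher in KO for 4 of the 5 members and lower for 1, with a median log2 fold change of 0.11, beside -0.03 for all 1797, of which 851 had higher and 946 lower estimates. The sign of the members' median rested on single libraries: it was -0.21 without W1 and -0.14 without K2. It was 0.57 without W2 and 0.42 without K1. Each of these fits leaves 1 genotype with only 1 pool number, so genotype and pool number are partly mixed in it. With all libraries and pool number as a block, the members' median was 0.13. The labels do not say how the pools were formed beyond the number of plasma samples, so the p-values measure only the spread between these libraries, which may be technical in part.

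Within pool 1, miR-181a-5p and miR-181b-5p were higher in KO by a similar factor, and within pool 2 both factors were near 1. For miR-181a-5p the KO over WT ratio of TMM-scaled UMIs was 1.99 in pool 1, with an exact 95% interval from 1.79 to 2.20, and 1.07 in pool 2, from 0.981 to 1.17. For miR-181b-5p it was 2.08 in pool 1, from 1.78 to 2.44, and 1.02 in pool 2, from 0.900 to 1.16. All such intervals cover counting error only, since each pool number holds 1 library per genotype. Among the 352 miRNAs that averaged at least 100 UMIs, the pool 1 ratios of these 2 ranked 28 and 23 from the highest, and their pool 2 ratios 127 and 154. A pool 1 ratio of 1.5 or more was found for 2 of the 5 members, for 12.2% of the 1797 miRNAs and for 23.9% of the 352.

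Scaled on total miRNA UMIs, miR-181a-5p had ratios of 1.76 in pool 1 (1.59 to 1.95) and 1.28 in pool 2 (1.17 to 1.40). miR-181b-5p had 1.85 in pool 1 (1.58 to 2.16) and 1.21 in pool 2 (1.07 to 1.38). The median ratio of all 1797 miRNAs was 0.991 in pool 1 and 0.989 in pool 2 after TMM scaling, but 0.878 and 1.18 on total UMIs. Relative to that median, the pool 1 ratios of both miRNAs were high under either scaling and the pool 2 ratios only slightly above it.

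miR-150-5p, with its large counts, had narrow intervals and went in opposite directions in the pools after TMM scaling. Its ratio was 1.31 in pool 1 (1.27 to 1.34) but 0.854 in pool 2 (0.834 to 0.874). On total miRNA UMIs the ratios were 1.16 (1.13 to 1.19) and 1.02 (0.994 to 1.04). miR-181c-5p had TMM ratios of 0.915 in pool 1 (0.646 to 1.29) and 0.919 in pool 2 (0.644 to 1.32). miR-181d-5p had 1.15 in pool 1 (0.895 to 1.49) and 1.04 in pool 2 (0.835 to 1.29). All 4 intervals of the chromosome 8 members include 1, and at their counts a difference as small as that of miR-181a-5p in pool 2 would not be detectable.

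After TMM scaling KO was above WT in both pools for 3 of the 5 members (miR-181a-5p, miR-181b-5p and miR-181d-5p) and for 24.5% of the 1797 miRNAs. It was below WT in both pools for miR-181c-5p, and for 27.2% of all. On total UMIs KO was above WT in both pools for 4 of the 5, with miR-150-5p added, and for 24.4% of all. Among the 352 more abundant miRNAs the shares above in both pools were 30.7% with TMM and 33.8% on total UMIs. The 4 miR-181 members share clusters and sequence, so they are not separate observations.

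**Figure D3:**
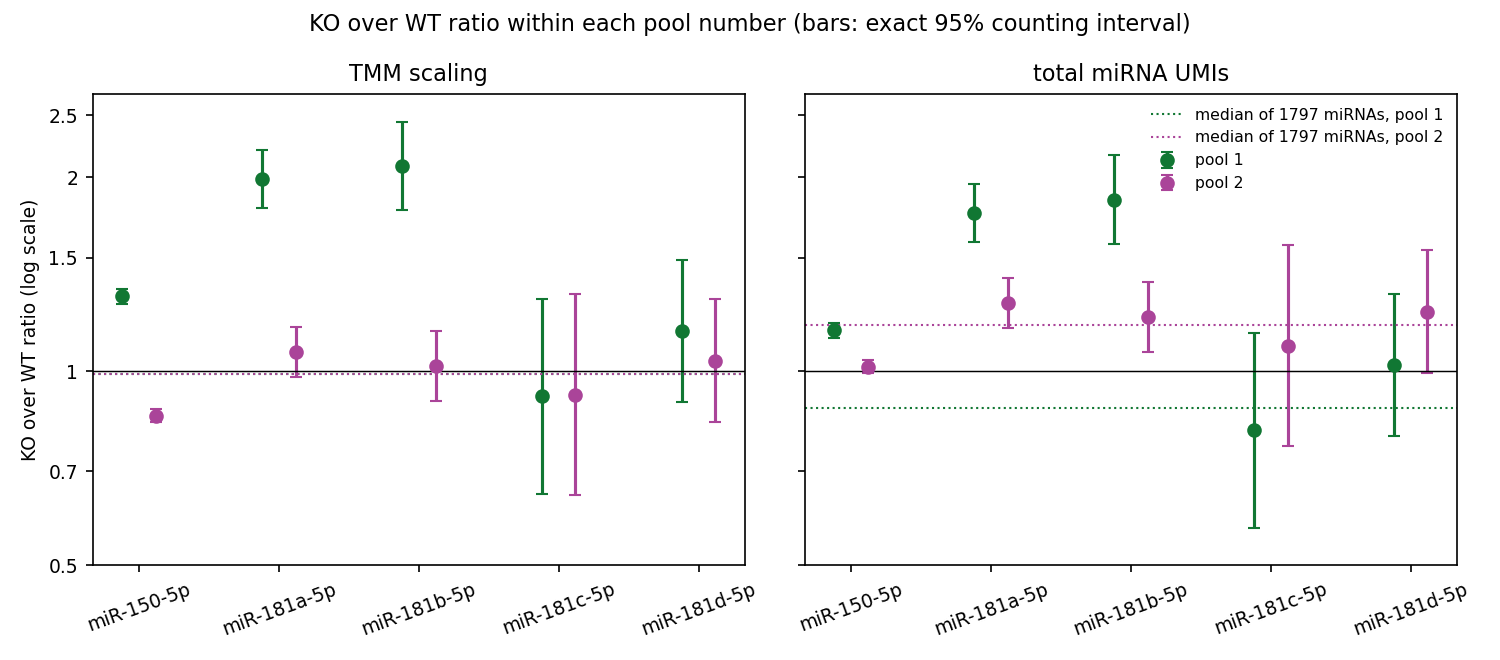
KO over WT ratio of each miRNA within pool 1 (green) and pool 2 (purple) on a logarithmic axis, after TMM scaling (left) and on total miRNA UMIs (right), with exact 95% counting intervals as bars and the median ratio of 1797 miRNAs as dotted lines. The pool 1 points of miR-181a-5p and miR-181b-5p (1.99 and 2.08 with TMM) are the highest, and the dotted lines part on the right (0.878 and 1.18).

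Marker miRNAs of other cell types also differed between the pool 1 libraries. The 4 muscle markers took 0.404% of miRNA UMIs in W1, 0.428% in W2, 3.73% in K1 and 0.690% in K2. The 2 myeloid markers took 1.59% in W1, 0.716% in W2, 3.91% in K1 and 0.615% in K2. The 4 endothelial and platelet markers took 1.98% in W1, 0.838% in W2, 3.02% in K1 and 1.27% in K2. The muscle list and the endothelial and platelet list were higher in KO within both pools, the myeloid list within pool 1 only. K1 was the highest library for these 3 lists, as it was for miR-181a-5p and miR-181b-5p as CPM of total UMIs. It was the lowest for the other 2 lists. The 8 red blood cell markers, with miR-16-5p a large part of them, took 46.8% in W1, 43.6% in W2, 38.0% in K1 and 46.7% in K2. The 5 liver markers took 11.4% in W1, 27.3% in W2, 7.49% in K1 and 20.3% in K2, lower in KO within both pools. No marker was at 0 in any library, and the part of these lists in the miR-181 values was not tested.

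Ratios between members do not depend on the scaling. For each miR-181 family UMI there were 10.4 miR-150-5p UMIs in W1, 8.96 in W2, 7.46 in K1 and 7.31 in K2. Both KO libraries were below both WT libraries, with means of 9.70 ± 1.04 for WT and 7.39 ± 0.107 for KO (SD, n = 2 each). The two-sided exact permutation p of 0.333 is the smallest possible, so this design cannot pass 0.05. The difference of -2.31 was -1.58 without W1 and -3.04 without W2.

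Within the family, miR-181a-5p supplied 56.1% of 991 UMIs in W1 (exact 95% interval 53.0 to 59.2%) and 56.7% of 1474 in W2 (54.1 to 59.3%). It supplied 61.0% of 1739 in K1 (58.6 to 63.3%) and 58.1% of 2106 in K2 (55.9 to 60.2%). Both KO shares were above both WT shares, by 3.10 percentage points in the mean, with an exact permutation p of 0.333. The interval of each WT library overlapped that of each KO library. The difference was 1.66 without K1. miR-181b-5p supplied 24.2% in W1, 29.5% in W2, 27.6% in K1 and 28.7% in K2, with overlapping genotypes. miR-181c-5p supplied 7.47% in W1, 4.00% in W2, 3.74% in K1 and 3.51% in K2, where W1 stood apart. miR-181d-5p supplied 12.2% in W1, 9.77% in W2, 7.71% in K1 and 9.69% in K2. For miR-181c-5p and miR-181d-5p both KO shares were below both WT shares, each again with an exact permutation p of 0.333. For both members the exact 95% interval of W2 overlapped those of K1 and K2. On read counts the exact permutation p for miR-181c-5p was 0.667, so its genotypes overlapped there. Shares within the family are parts of the same total, so these lower shares and the higher share of miR-181a-5p are not separate observations. The mean difference for miR-181c-5p was -2.11 percentage points, -0.377 without W1 and -3.84 without W2. For miR-181d-5p it was -2.29, -1.07 without W1, -3.51 without W2 and -1.30 without K1.

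The neighbours miR-181a-5p and miR-181b-5p were then set against the neighbours miR-181c-5p and miR-181d-5p, a comparison chosen after the values were seen. The first pair had 796 UMIs in W1 and 1540 in K1, whereas the second had 195 and 199. The odds of the first pair over the second were 1.90 times as high in K1 as in W1 (exact 95% interval 1.52 to 2.36). In pool 2 the first pair had 1271 in W2 and 1828 in K2 and the second 203 and 278, an odds ratio of 1.05 (0.860 to 1.28). Since the pairs were chosen for these values, the ratios are a description of the libraries and no test. miR-181a-5p UMIs per miR-181b-5p UMI were 2.32 in W1, 1.92 in W2, 2.21 in K1 and 2.02 in K2, with overlapping genotypes.

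**Figure D4:**
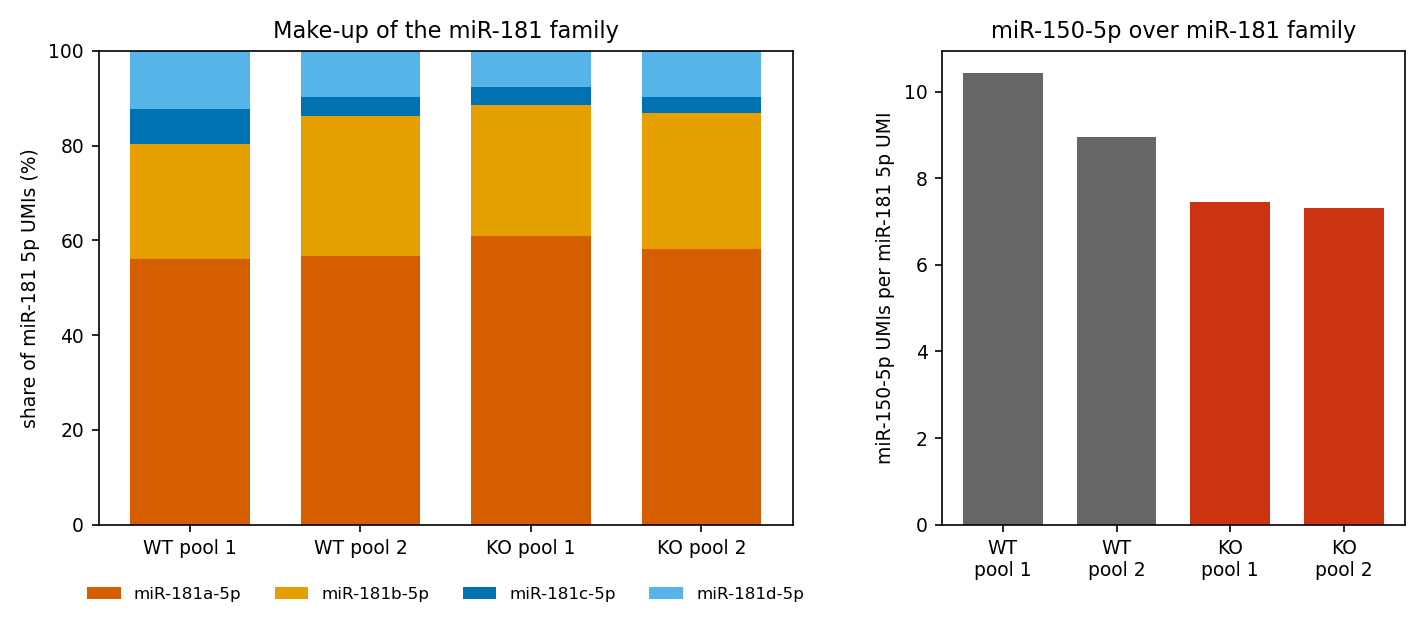
Left, share of the 5p UMIs of the miR-181 family held by each member in each library, stacked to 100%. Right, miR-150-5p UMIs per miR-181 family UMI, with WT in grey (10.4 and 8.96) and KO in red (7.46 and 7.31).

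The opposite arms of the hairpins were counted too. The precursor of the chromosome 1 copy of miR-181a (137966455 to 137966541, plus strand, RefSeq) is printed to show both arms, in capitals, the 5p arm first.
Mir181a-1: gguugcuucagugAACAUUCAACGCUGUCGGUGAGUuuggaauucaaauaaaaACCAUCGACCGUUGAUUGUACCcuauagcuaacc
miR-150-5p outnumbered miR-150-3p by 144 to 316 times, so the 5p arm made up 99.3 to 99.7% of both arms. miR-150-3p had 52 UMIs in W1, 67 in W2, 41 in K1 and 107 in K2. The 5p arm made up 77.7 to 88.9% for miR-181a, 76.2 to 91.0% for miR-181b and 81.2 to 93.5% for miR-181d. For miR-181c it was 49.6 to 63.2%, so its arms were counted at similar levels.

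The 3p arms of the miR-181a copies differ in sequence and so can be assigned to a locus. They are printed with the differing bases in capitals.
miR-181a-1-3p: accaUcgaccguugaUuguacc
miR-181a-2-3p: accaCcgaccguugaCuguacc
The differences were U5C and U16C, counted from the 5′ end. miR-181a-1-3p, from chromosome 1, had 71 UMIs in W1, 222 in W2, 116 in K1 and 155 in K2. miR-181a-2-3p, from chromosome 2, had 30 in W1, 18 in W2, 16 in K1 and 27 in K2, below the median miRNA of each library. The chromosome 1 arm made up 70.3% of the pair in W1 (60.4 to 79.0%), 92.5% in W2 (88.4 to 95.5%), 87.9% in K1 (81.1 to 92.9%) and 85.2% in K2 (79.2 to 90.0%). W1 was the low library, and the genotypes overlapped.

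KO over WT ratios of the 3p arms were not always those of the 5p arms. For miR-181a-1-3p the TMM ratio was 1.70 in pool 1 (1.26 to 2.32), beside 1.99 for miR-181a-5p, but 0.512 in pool 2 (0.414 to 0.631), beside 1.07. The pool 1 ratio of miR-181a-2-3p was 0.556 (0.283 to 1.05). Beside 2.08 for miR-181b-5p, miR-181b-1-3p had 1.04 (0.566 to 1.92) and miR-181b-2-3p 0.654 (0.406 to 1.04) in pool 1. These arms had 16 to 51 UMIs in the pool 1 libraries, and their intervals include 1. miR-181d-3p had 28 UMIs in W1, 10 in W2, 29 in K1 and 39 in K2. Its TMM ratios were 1.08 in pool 1 (0.619 to 1.88) and 2.86 in pool 2 (1.40 to 6.42), the latter on 10 UMIs in W2. Of the 7 3p arms, 3 had higher and 4 lower estimates in KO, with a median log2 fold change of -0.22, beside 851 higher, 946 lower and -0.03 for all 1797, and edgeR called 0.

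**Figure D5:**
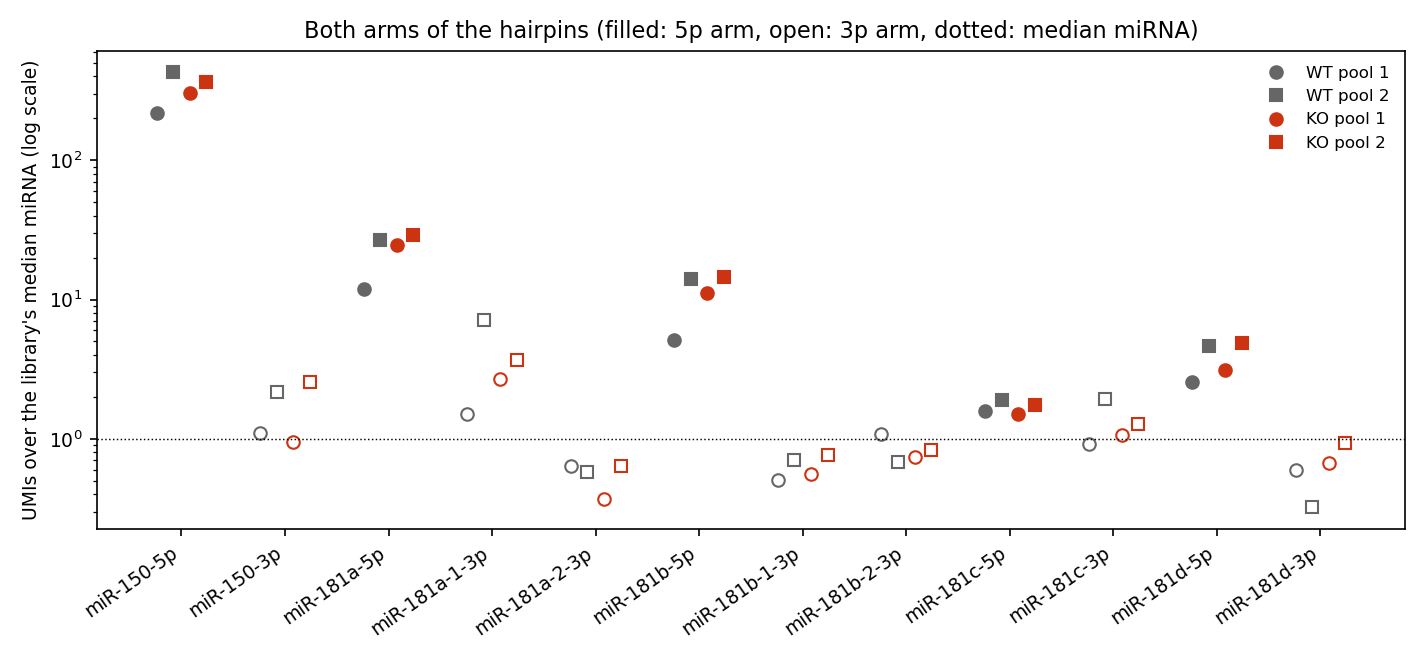
UMIs of each arm divided by the UMIs of the library's median miRNA, on a logarithmic axis, with 5p arms filled and 3p arms open, WT in grey, KO in red, pool 1 as circles and pool 2 as squares. miR-150-5p is 220 to 426 times the median miRNA, and miR-181a-2-3p lies under the dotted line in all 4 libraries.

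Reads per UMI of the members followed pool number as those of all miRNAs did. For miR-150-5p they were 5.77 in W1, 1.67 in W2, 6.12 in K1 and 2.11 in K2. For miR-181a-5p they were 6.19 in W1, 1.75 in W2, 6.59 in K1 and 2.28 in K2.

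A further 11 miRNAs known from lymphocytes were placed beside the members. edgeR called 0 of them, 9 had higher and 2 lower estimates in KO, and their median log2 fold change was 0.16, beside 851 higher, 946 lower and a median of -0.03 for all 1797. Without W1 that median was -0.16 and without W2 it was 0.66. miR-142a-3p, found across blood cells, had TMM ratios of 1.33 in pool 1 and 0.998 in pool 2. miR-342-3p, abundant in lymphocytes, had 1.28 and 0.763, beside 1.31 and 0.854 for miR-150-5p. Pool 1 ratios below 1 were found for 3 of the 11. miR-17-5p had 0.903 in pool 1 and 1.10 in pool 2, and miR-92a-3p had 0.942 and 0.880. miR-342-5p, counted at 14 to 28 UMIs, had 0.951 and 1.47. Over all miRNAs, the pool 1 TMM ratio was above 1 for 49.1% of the 1797 and for 62.5% of the 352 more abundant ones.

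miR-155-5p, induced when lymphocytes and macrophages are activated, had 244 UMIs in W1, 393 in W2, 460 in K1 and 498 in K2. Its TMM ratios were 1.96 in pool 1 (1.68 to 2.30) and 0.929 in pool 2 (0.812 to 1.06). miR-146a-5p, induced by NF-kB signalling, had TMM ratios of 2.23 in pool 1 and 1.41 in pool 2. After TMM scaling its levels of 4690 CPM in W1, 6180 in W2, 10459 in K1 and 8695 in K2 did not overlap between genotypes. As CPM of total UMIs they did. miR-155-3p of the same list, counted at 9 to 23 UMIs, did not overlap after TMM scaling either. With TMM, both KO libraries were above both WT libraries for 9.52% of the 1797 miRNAs. The log2 fold change of miR-146a-5p was 0.82 (SE 0.79, edgeR adjusted p = 0.99995).

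Profiles over the 4 libraries were compared by the Euclidean distance of log2 CPM (TMM), centred on each miRNA's mean, with 348 other miRNAs. The nearest to miR-150-5p were let-7d-3p at 0.127, miR-29a-3p at 0.157, miR-365-3p at 0.162 and miR-664-5p at 0.193. The nearest to miR-181a-5p were miR-155-5p at 0.147, miR-152-3p at 0.193, miR-101a-3p at 0.211 and miR-434-3p at 0.222. Within the family, miR-181b-5p was 0.207 from miR-181a-5p, miR-181d-5p 0.556 and miR-181c-5p 0.930. Each profile has only 4 points, so these distances are a description.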

How the data were processed

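The authors deposited UMI counts and read counts per mature miRNA for each of 4 libraries, as raw whole numbers. They also deposited log2 values, which equal log2 of the UMI count shifted by a constant for each library. Per the labels' protocols, libraries came from a kit with UMIs. FastQC 0.11.9 and GRCm38 are named in the submitters' processing notes; aligner and counter: not given in the sources used here. Genotypes were compared on UMI counts with edgeR 4.0.16 in R 4.3.3 (filterByExpr, TMM, quasi-likelihood test), adjusting p by Benjamini-Hochberg over 1797 miRNAs. All 5 members passed the filter. Pool numbers are labels only, so the main fit had no block. Each pool 1 library had no count from 1 to 9. Intervals for shares and ratios are Clopper-Pearson, and those for odds ratios are conditional exact. piRNAs were left out. The fit was tested on simulated data with planted changes larger than the members' estimates, so that test does not show the power for the members. Alternatives were other scalings, filters and tools (limma 3.58.1, DESeq2 1.42.0), read counts, a block, and each library left out. Members, lists and tests were chosen with earlier results of these data known. Besides the members, miRNAs were named by rule: their other arms, any with the same seed, the 4 nearest in profile to miR-150-5p and to miR-181a-5p (mean of at least 100 UMIs), and examples from the lymphocyte list.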

Additional observations from a re-analysis of the deposited data

How the results depend on the processing

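Leaving out 1 library at a time gave 0 to 3 called miRNAs (edgeR), none of them a member, against 0 with all libraries: 2 without WT pool 2 and 3 without KO pool 2. Over these fits, in which the lone library is assumed to vary like the other genotype, the log2 fold change ranged from -0.34 to 0.54 for miR-150-5p, 0.0014 to 1.12 for miR-181a-5p, -0.13 to 1.26 for miR-181b-5p, -0.25 to 0.0084 for miR-181c-5p and -0.25 to 0.57 for miR-181d-5p. The KO minus WT difference ranged from -0.108 to 0.270 percentage points for the members' share of miRNA UMIs, -1.35 to 3.95 for the share of miR-181b-5p in its family, -0.202 to 0.193 for miR-181a-5p per miR-181b-5p and -0.0315 to 0.774 for miR-181d-5p per miR-181c-5p. With only miRNAs averaging at least 100 UMIs, the log2 fold change of miR-150-5p was -0.014; the cause was not tested. On total miRNA UMIs the pool 2 ratios turned to 1.02 for miR-150-5p and 1.10 for miR-181c-5p, and on read counts to 1.12 for miR-181c-5p.

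With pool number as a replicate block edgeR called 0, and 78 had an unadjusted p under 0.05 against 32. The blocked log2 fold changes were 0.08 (SE 0.30) for miR-150-5p, 0.54 (SE 0.33) for miR-181a-5p and 0.54 (SE 0.34) for miR-181b-5p. The blocked values were -0.12 (SE 0.19) for miR-181c-5p and 0.13 (SE 0.22) for miR-181d-5p. These SEs were smaller than without the block, on 1 residual degree of freedom. The lowest adjusted p of a member was 0.898 (edgeR), so no member's call changed. Deviations of libraries with the same number correlated at 0.527 across miRNAs, a hint from the data and not the design. Low counts limit what can be seen for miR-181c-5p and the 3p arms.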
